A study of Mus musculus with 12 samples.

Results

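The glucocorticoid receptor gene Nr3c1 and 9 genes known to respond to the receptor or to act on its ligand were followed in mouse adult fibroblasts (MAFs) that had all been exposed to dexamethasone. The genes were chosen by name from knowledge of the pathway, with earlier results of these data known. They were Nr3c1, Fkbp5, Tsc22d3, Klf9, Sgk1, Zbtb16, Dusp1, Mt1, Mt2 and Hsd11b1. These were 10 of the 49315 annotated genes counted, and all 10 passed the filter on low counts that left 17416 genes for testing. MAFs are primary cells grown out of ear tissue, here from wild-type (WT) C57BL/6 mice and from Bmal1-/- mice (KO), which lack the circadian transcription factor BMAL1. Cells of each genotype were sham irradiated (control) or received 20 Gy of X-rays and became senescent, giving the groups WTC, WTS, KOC and KOS with 3 libraries each. By the paper's methods irradiated cells were then kept in culture for weeks, so time in culture may also differ between senescent and control cells. Every culture of every group was synchronised with 100 nM dexamethasone, a synthetic glucocorticoid, and collected 12 h later. The methods describe an exposure to dexamethasone shorter than these 12 h. No library here came from cells without dexamethasone, so the response to the hormone itself was not measured, and each difference below is one of senescence or genotype among hormone-treated cells. Nothing states that the 3 libraries of a group came from separate animals, so p-values measure the spread between these libraries, which may be technical.

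The glucocorticoid receptor waits in the cytoplasm in a complex with HSP90 and its co-chaperones, moves to the nucleus once a steroid has bound it, and there activates or represses genes. It activates genes by binding paired half-sites in their regulatory regions, and it represses many inflammatory genes without such sites. Among the first genes it induces are brakes on its own signal, on MAP kinases and on inflammation, and it also acts on clock genes, which is why dexamethasone is used to set the circadian phase of cultured fibroblasts.

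Library totals ran from 23923030 to 31736083 counts, and 3 counts, used as the floor of detection, equalled 0.101 to 0.135 CPM, a level relative to the library total. CPM rests here on TMM-scaled totals (TMM is the trimmed mean of M-values), and the TMM factors were 0.926 to 0.967 in control and 1.04 to 1.07 in senescent libraries. Arntl, the gene of BMAL1, was at 29.8 to 37.3 CPM in WT libraries, 11.8 to 15.2 CPM in KOC and 25.3 to 27.4 CPM in KOS, so each KO library lay below each WT library but reads of the targeted gene were counted in all of them. Each genotype was deposited as a table of its own, so handling and genotype cannot be told apart in comparisons of KO with WT. All 6 fibroblast markers examined were above the floor in every library. Their summed level was 12563 to 12911 CPM in WTC, 4894 to 4976 CPM in WTS, 16631 to 17238 CPM in KOC and 6885 to 7052 CPM in KOS. The collagen genes Col1a1 and Col1a2 made up most of that sum, while the means of Dcn, Lum and Thy1 were higher in the senescent group of both genotypes (Dcn 28.9 CPM in WTC, 299 CPM in WTS, 25.0 CPM in KOC and 272 CPM in KOS) and that of Pdgfra was higher in WTS than in WTC (456 and 379 CPM) and lower in KOS than in KOC (279 and 328 CPM). All 5 chondrocyte markers were above the floor as well, and their sum moved with senescence and with genotype, at 6896 to 8531 CPM in WTC, 1763 to 2044 CPM in WTS, 4505 to 6145 CPM in KOC and 553 to 636 CPM in KOS. The part of these other-cell markers in the results below was not tested. In such bulk samples a smaller number of cells of a type and less RNA per cell cannot be told apart.

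Promoter sequence was examined for 8 of the 10 genes, those with an entry in the RefSeq table used (assembly GRCm38.p6), over 250 bases before and 50 bases after each annotated start. The metallothionein promoters are shown because the 2 genes lie side by side and rose together, the Sgk1 window because it holds the receptor's full palindrome, and the Dusp1 window because it holds the letters that BMAL1 binds. Capitals mark the metal response element core in Mt2 (chr8:94172368-94172667, plus strand) and Mt1 (chr8:94178839-94179138, plus strand), the glucocorticoid response element in Sgk1 (chr10:21993640-21993939, plus strand), and the cAMP response element half-sites and the E-box in Dusp1 (chr17:26508423-26508722, minus strand), each read 5′ to 3′ on the gene's strand.
Mt2: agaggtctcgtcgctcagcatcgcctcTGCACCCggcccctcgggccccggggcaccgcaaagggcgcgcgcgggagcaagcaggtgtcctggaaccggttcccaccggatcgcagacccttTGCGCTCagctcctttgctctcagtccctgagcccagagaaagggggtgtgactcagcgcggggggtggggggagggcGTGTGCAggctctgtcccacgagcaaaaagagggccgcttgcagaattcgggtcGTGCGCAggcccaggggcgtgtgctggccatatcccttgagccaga
Mt1: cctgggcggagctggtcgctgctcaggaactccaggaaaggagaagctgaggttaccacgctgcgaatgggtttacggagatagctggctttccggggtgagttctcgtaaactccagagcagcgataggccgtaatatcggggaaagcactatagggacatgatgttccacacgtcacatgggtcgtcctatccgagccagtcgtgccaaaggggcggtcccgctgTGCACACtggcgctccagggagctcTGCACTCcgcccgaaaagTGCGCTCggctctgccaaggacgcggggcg
Sgk1: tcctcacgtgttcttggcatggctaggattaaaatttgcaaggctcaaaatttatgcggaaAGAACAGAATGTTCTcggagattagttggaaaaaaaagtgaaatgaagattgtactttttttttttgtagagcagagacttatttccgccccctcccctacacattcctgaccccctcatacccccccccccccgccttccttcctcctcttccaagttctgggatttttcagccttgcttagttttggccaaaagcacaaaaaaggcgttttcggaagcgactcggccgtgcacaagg
Dusp1: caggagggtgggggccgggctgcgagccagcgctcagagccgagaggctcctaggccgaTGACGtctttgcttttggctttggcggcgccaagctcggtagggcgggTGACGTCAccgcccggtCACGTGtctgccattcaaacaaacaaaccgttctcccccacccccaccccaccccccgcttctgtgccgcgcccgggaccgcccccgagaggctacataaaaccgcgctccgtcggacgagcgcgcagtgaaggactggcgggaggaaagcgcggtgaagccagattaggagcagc

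The letters were searched on both strands and are a description of these windows, not a measure of binding. The metal response element core, the site of the zinc sensor MTF1, was searched as TGCGCNC or TGCACNC and occurred 4 times in the Mt2 window and 3 times in the Mt1 window. Of 32851 RefSeq promoters of the same length, 25.7% held it at least once and 1.97% held it 3 times or more. The full glucocorticoid response element, searched as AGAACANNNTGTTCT, was found 189 bases before the start of one Sgk1 transcript, and in 3 of the 32851 promoters (0.00913%). Its half-site AGAACA, which lies inside the full element and was held by 19% of promoters, also occurred in other Sgk1 windows and in one of Tsc22d3. The E-box CACGTG, held by 7.15% of promoters, was found 126 bases before the Dusp1 start, in the Fkbp5 window and in the Sgk1 window shown. The half-site TGACG, held by 20.8%, occurred 3 times in the Dusp1 window, with 2 of the 3 matches overlapping in 1 palindrome, and the AP-1 site TGACTCA, held by 5.2% of promoters, occurred once, in the Mt2 window.

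With senescence, the genes of this pathway moved mostly upward in both genotypes, and Fkbp5 moved down. In WT cells 9 of the 10 genes passed edgeR's quasi-likelihood test at an adjusted p under 0.05, 8 higher and 1 lower in WTS than in WTC. Of all genes tested 56.2% passed, 29.2% as higher and 27% as lower. Of these, 4 also changed by more than 1 on the log2 scale (Fkbp5, Tsc22d3, Zbtb16 and Mt2), against 17.4% of all genes. In KO cells 9 of 10 passed, again 8 higher and 1 lower in KOS than in KOC, against 57.1% of all genes (28.5% higher and 28.6% lower), and 6 exceeded 1 on the log2 scale, against 18.8%. The median log2 fold change of the 10 genes was 0.75 in WT and 0.90 in KO cells, beside medians of 0.02 and −0.0028 over all genes tested. Libraries of the senescent and control groups did not overlap for 10 of the 10 genes in WT cells, where this held for 63.2% of genes, and for 9 of 10 in KO cells, where it held for 61.6%. With calls this common among all genes, the sizes and directions below carry the description.

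**Figure D1:**
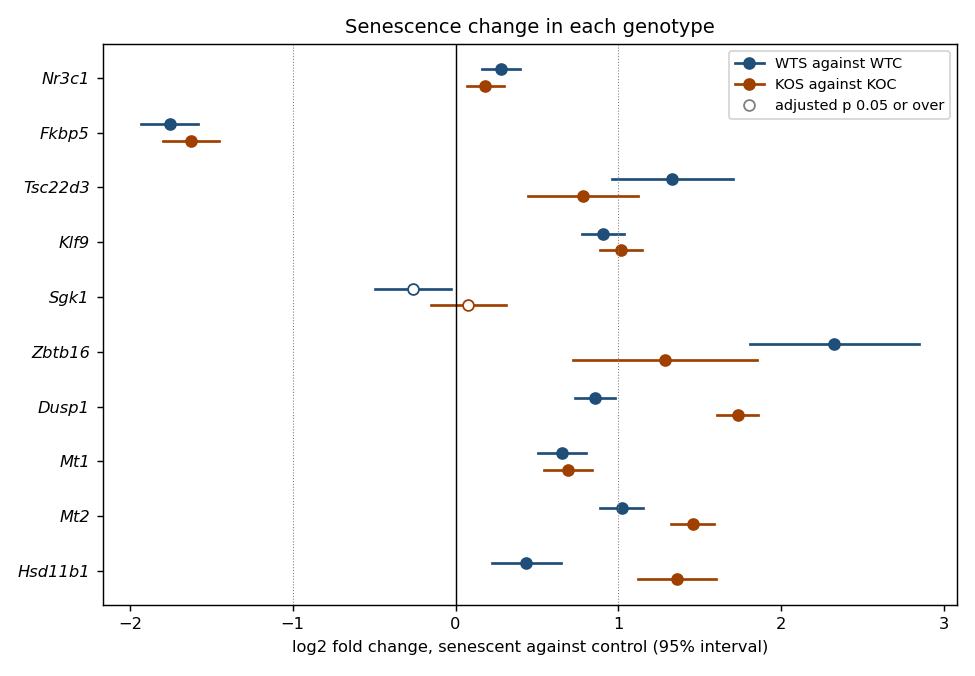
Log2 fold change of each of the 10 genes with senescence (x axis), in WT cells (WTS against WTC, blue) and in KO cells (KOS against KOC, orange); lines are 95% intervals, open circles did not pass an adjusted p of 0.05 and dotted lines mark a change of 1. Fkbp5 lies at −1.76 and −1.63, Sgk1 near 0, and the intervals of the 2 genotypes are apart for Dusp1, Mt2 and Hsd11b1.

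Nr3c1 (ENSMUSG00000024431, GRCm38 chromosome 18, 39410545 to 39519421, minus strand), the receptor gene, rose slightly with senescence. Its level was 152, 151 and 162 CPM in the 3 WTC libraries, 187, 185 and 193 CPM in WTS, 157, 162 and 157 CPM in KOC, and 186, 190.2 and 164 CPM in KOS. All senescent libraries lay above all control libraries, and KOS replicate 3 was the lowest of the senescent ones. The log2 fold change was 0.28 (SE 0.06, adjusted p 0.000227) in WT cells, a 1.21-fold increase. In KO cells it was 0.18 (SE 0.06, adjusted p 0.00767), a call lost without KOS replicate 2 (0.14, adjusted p 0.0636). Between genotypes the receptor gene differed by 0.03 in control cells (95% interval −0.09 to 0.15) and by −0.06 in senescent cells (−0.18 to 0.05), so a genotype difference above 0.18 in size on the log2 scale lay outside both intervals.

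Fkbp5 (ENSMUSG00000024222, chromosome 17, 28399094 to 28517527, minus strand) encodes FKBP51, a co-chaperone that lowers the receptor's affinity for hormone and is induced by the receptor as a feedback brake. It was the only one of the 10 genes to pass in the lower direction. Levels were 68.0, 57.8 and 73.9 CPM in WTC and 19.4, 20.7 and 19.0 CPM in WTS. In KO cells they were 68.6, 64.8 and 65.0 CPM in KOC and 19.2, 21.8 and 23.1 CPM in KOS. Control libraries lay far above senescent libraries, and WT and KO libraries overlapped on both sides. Fkbp5 thus fell by 1.76 on the log2 scale in WT cells (SE 0.08, adjusted p 2.24e-13), to a level 3.38-fold lower. The KO decrease was 1.63 (SE 0.08, adjusted p 5.69e-13), 3.09-fold. The 2 decreases differed by 0.13 (95% interval −0.11 to 0.37, adjusted p 0.480), and between genotypes Fkbp5 differed by −0.01 in control cells (−0.17 to 0.15) and 0.12 in senescent cells (−0.06 to 0.30).

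Hsd11b1 (ENSMUSG00000016194, chromosome 1, 193221634 to 193264075, minus strand) encodes 11β-hydroxysteroid dehydrogenase type 1, which regenerates active glucocorticoid from its inert keto form inside the cell. It stood at 14.4, 16.9 and 16.8 CPM in WTC and 21.2, 20.4 and 23.5 CPM in WTS. The KO levels were lower, with 5.32, 5.99 and 4.68 CPM in KOC and 13.7, 15.2 and 12.5 CPM in KOS. The 4 groups did not overlap except that the highest KOS library (15.2 CPM) lay within the range of WTC. Loss of BMAL1 went with a 2.99-fold lower level in control cells (log2 fold change −1.58, SE 0.11, adjusted p 5.05e-09) and a 1.58-fold lower level in senescent cells (−0.66, SE 0.10, adjusted p 7.51e-05). Senescence raised it by 0.44 in WT cells (SE 0.10, adjusted p 0.00108), and the KO increase was 1.36 (SE 0.11, adjusted p 1.92e-09). The KO increase was larger by 0.93 (SE 0.15, interaction adjusted p 0.000287). The sum of the adipocyte markers also differed by genotype. It was 62.1 to 70.7 CPM in WTC, 51.1 to 56.0 CPM in WTS, 40.1 to 41.1 CPM in KOC and 31.5 to 36.1 CPM in KOS. That sum was mostly Pparg (means 56.8 in WTC, 33.9 in WTS, 32.7 in KOC and 15.6 CPM in KOS). Other markers did not share its genotype difference. Fabp4 means were 8.77 in WTC and 7.65 in KOC, and 18.8 in WTS and 16.3 CPM in KOS. The Plin1 mean was higher in KOS than in WTS (0.85 and 0.30 CPM). Of the 5 markers 2 to 4 were above the floor in all libraries of a group. Adipoq was at most 0.463 CPM and Cidec at most 0.154 CPM in any library. The part of these markers in the Hsd11b1 difference was not tested.

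Tsc22d3 (ENSMUSG00000031431, chromosome X, 140539528 to 140600659, minus strand) encodes GILZ, a leucine zipper protein that carries part of the anti-inflammatory action of glucocorticoids by binding NF-κB and AP-1 subunits. Levels were 13.4, 16.4 and 13.9 CPM in WTC, 30.9, 42.7 and 36.4 CPM in WTS, 28.2, 34.9 and 36.9 CPM in KOC, and 46.9, 65.8 and 59.2 CPM in KOS. WTC libraries were the lowest and KOS libraries the highest, while KOC and WTS libraries overlapped. In WT cells the gene rose 2.52-fold with senescence (log2 1.33, SE 0.17, adjusted p 3.95e-05) and in KO cells 1.72-fold (0.78, SE 0.15, adjusted p 0.0011). Tsc22d3 was higher in KO than in WT cells by 1.19 among controls (SE 0.17, adjusted p 0.000844) and by 0.64 among senescent cells (SE 0.15, adjusted p 0.0104). The KO increase was smaller by 0.55 (95% interval −1.05 to −0.04), which did not pass over all genes (adjusted p 0.121). It passed with DESeq2 (0.0389) and with no filter on low counts (0.0151). Over 5 other ways of processing, these among them, the adjusted p ran from 0.00174 to 0.148, and it was 0.233 without KOC replicate 3.

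Klf9 (ENSMUSG00000033863, chromosome 19, 23141226 to 23168134, plus strand), a Krüppel-like factor that the receptor induces directly and that mostly represses transcription, rose with senescence by a similar amount in the 2 genotypes. It was at 34.0, 35.0 and 32.7 CPM in WTC and at 59.9, 65.1 and 65.6 CPM in WTS. In KO cells it was at 33.0, 35.9 and 34.1 CPM in KOC and at 64.8, 71.4 and 72.2 CPM in KOS. All 6 senescent libraries lay far above all 6 control libraries. The increase was 0.90 in WT cells (SE 0.06, adjusted p 8.77e-11) and 1.02 in KO cells (SE 0.06, adjusted p 1.09e-11), so that only the KO value exceeded 1, and it ran from 0.98 to 1.07 as single libraries were left out and was 0.999 with no filter on low counts. The 2 increases differed by 0.11 (95% interval −0.07 to 0.29). Between genotypes Klf9 differed by 0.02 in control cells (−0.12 to 0.15). In senescent cells KO exceeded WT by 0.13 (0.0036 to 0.25), which did not pass (adjusted p 0.132).

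Zbtb16 (ENSMUSG00000066687, chromosome 9, 48654297 to 48836222, minus strand) encodes PLZF, a zinc finger repressor strongly induced by glucocorticoids in many cell types, and was the gene of the 10 with the fewest reads. WTC libraries held 1.41, 1.18 and 1.22 CPM (27 to 35 counts) and WTS libraries 5.38, 7.21 and 6.60 CPM. KOC libraries held 0.72, 0.74 and 1.33 CPM (18 to 31 counts) and KOS libraries 1.93, 2.98 and 1.82 CPM. WTS libraries stood above all others, and WTC and KOC libraries overlapped. The increase was 5.02-fold in WT cells (log2 2.33, SE 0.25, adjusted p 6.95e-08) and 2.44-fold in KO cells (1.28, SE 0.27, adjusted p 0.000372). In senescent cells the KO level was 2.84-fold lower (−1.51, SE 0.23, adjusted p 5.65e-05), and in control cells the difference was −0.47 (95% interval −1.07 to 0.14). The KO increase was smaller than the WT one by 1.04 (SE 0.37), just short of the threshold at an adjusted p of 0.0522. Without each of WTS replicate 1, KOC replicate 1, KOC replicate 2 and KOS replicate 2 in turn this difference passed, at adjusted p 0.0479, 0.0287, 0.0482 and 0.0166. Over all 12 left-out libraries it ran from −1.30 to −0.72, and its adjusted p was 0.231 without KOC replicate 3. Under 5 other ways of processing the adjusted p was 0.0422 to 0.0885.

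**Figure D2:**
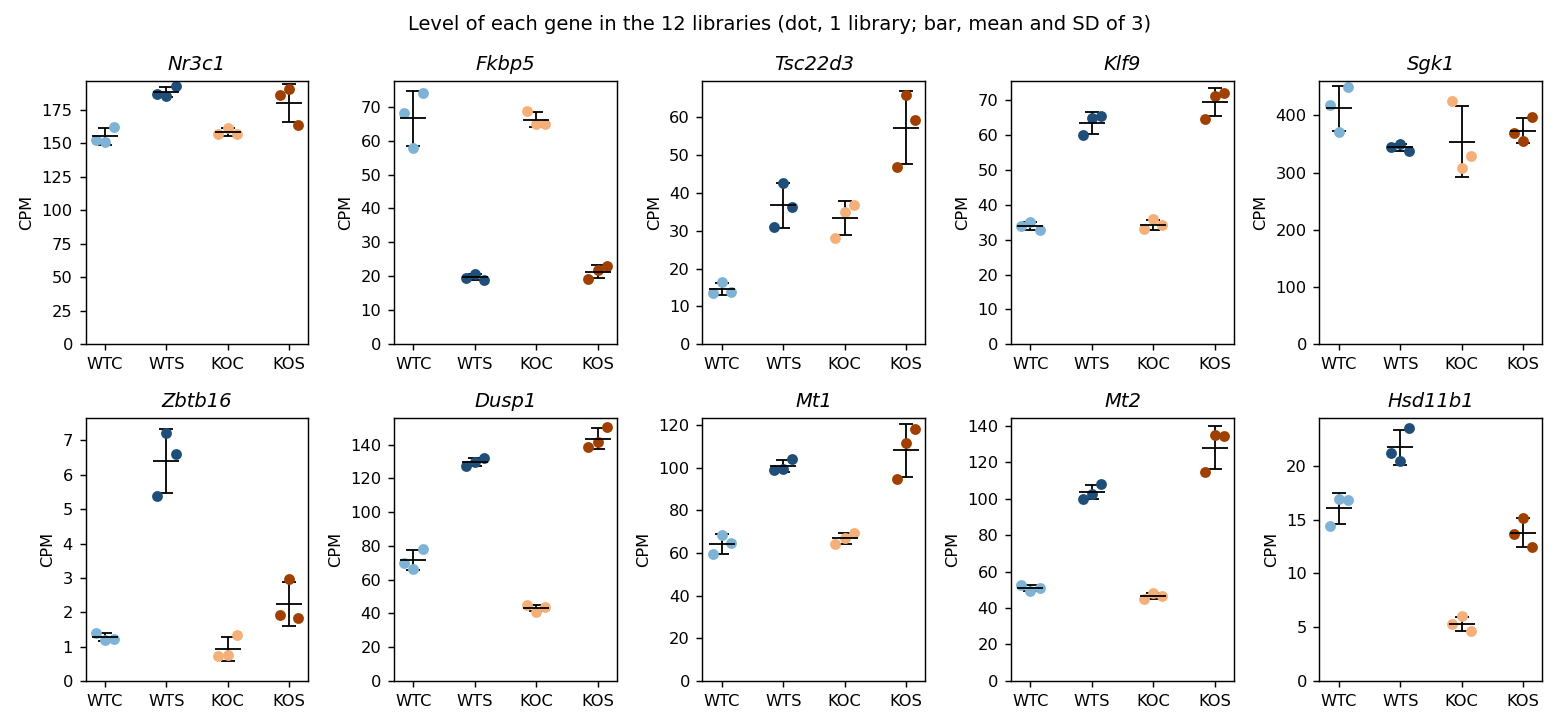
Level of each of the 10 genes in CPM (y axis, from 0) in the 4 groups; each dot is 1 library, and bars give the mean and SD of 3 libraries. Fkbp5 drops in both genotypes, Hsd11b1 is lowest in KOC, Zbtb16 is highest in WTS, Dusp1 is lowest in KOC, and Sgk1 libraries spread widely within WTC and KOC.

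Sgk1 (ENSMUSG00000019970, chromosome 10, 21882184 to 21999903, plus strand), a kinase of ion transport and cell survival that steroid hormones and cell stress both induce, varied widely between the libraries of WTC and of KOC. It was at 418, 370.1 and 449 CPM in WTC, 344, 349 and 338 CPM in WTS, 424, 308 and 328 CPM in KOC, and 369, 355 and 397 CPM in KOS. KOC replicate 1 stood apart from the other KOC libraries and inside the range of WTC. In WT cells Sgk1 was lower in all 3 senescent libraries, by a log2 fold change of −0.26 (SE 0.105) that did not pass (adjusted p 0.0524). It passed with DESeq2 (0.00926), DESeq2 size factors (0.0442), no filter on low counts (0.0001), a replicate block (0.0239) and the compared groups alone (0.0002). Under 6 other ways of processing, these among them, the adjusted p ran from 0.0001 to 0.0571, and it was 0.186 without WTC replicate 3. In KO cells the difference was 0.08 (95% interval −0.15 to 0.31). Without KOC replicate 1 it became 0.23 (adjusted p 0.00666), the genotype difference in control cells went from −0.22 (adjusted p 0.210) to −0.37 (0.000495), and the interaction from 0.34 (adjusted p 0.137) to 0.49 (0.000331). With all libraries and no filter on low counts, the genotype difference in control cells passed (−0.21, adjusted p 0.0102), and so did the interaction (0.00283), which also passed with DESeq2 (0.0322).

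Dusp1 (ENSMUSG00000024190, chromosome 17, 26505590 to 26562128, minus strand) encodes MKP-1, the phosphatase that switches off p38 and JNK and is one of the main routes by which glucocorticoids restrain inflammatory signalling. Its levels were 70.1, 66.5 and 78.4 CPM in WTC and 127, 129.6 and 132 CPM in WTS. KO libraries covered a wider span, with 44.9, 41.0 and 43.7 CPM in KOC and 139, 141 and 150.5 CPM in KOS. KOC libraries were the lowest and KOS libraries the highest, with no overlap between any of the 4 groups. In control cells the KO level was 1.66-fold lower than the WT level (log2 fold change −0.73, SE 0.06, adjusted p 4.2e-08). Senescence raised Dusp1 by 0.86 in WT cells (SE 0.06, adjusted p 8.97e-11), KO senescence by 1.73 (SE 0.06, adjusted p 1.82e-15), and the KO increase was larger by 0.88 (SE 0.08, interaction adjusted p 1.07e-06). In senescent cells KO exceeded WT by 0.15 (95% interval 0.03 to 0.27, adjusted p 0.0704). This passed with DESeq2 (0.0327), DESeq2 size factors (0.0342), a filter at 1 CPM (0.0425), a replicate block (0.0489) and the compared groups alone (0.0250). Over 6 other ways of processing, these among them, the adjusted p ran from 0.0250 to 0.109, and it was 0.247 without KOS replicate 3. Of 3311 exon bases of Dusp1, 11 are shared with Ergic1 on the other strand.

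Mt1 (ENSMUSG00000031765, chromosome 8, 94179082 to 94180327, plus strand) and Mt2 (ENSMUSG00000031762, chromosome 8, 94172664 to 94173568, plus strand) encode metallothioneins, small cysteine-rich proteins that bind zinc and copper and are induced by glucocorticoids, by metals and by oxidative stress. The 2 genes lie 5513 bases apart in the same orientation, with Mt2 first. Mt1 was at 59.4, 68.5 and 64.5 CPM in WTC, 98.8, 99.5 and 104 CPM in WTS, 64.4, 67.1 and 69.4 CPM in KOC, and 94.5, 111 and 118 CPM in KOS. Mt2 was at 52.5, 49.5 and 51.2 CPM in WTC, 100.1, 103 and 108 CPM in WTS, 44.8, 48.5 and 46.6 CPM in KOC, and 115, 135 and 134.5 CPM in KOS. For both genes all senescent libraries lay above all control libraries, and the 2 genotypes overlapped for Mt1 but not for Mt2. Mt1 rose by 0.65 in WT cells (SE 0.07, adjusted p 1.05e-07), and its KO increase was 0.69 (SE 0.07, adjusted p 3.87e-08), increases that differed by 0.04 (95% interval −0.17 to 0.25). Mt2 rose by 1.02 in WT cells (SE 0.06, adjusted p 1.39e-11). That value ran from 0.99 to 1.05 over left-out libraries, and also over 6 other ways of processing, so its place above 1 was not stable. The Mt2 increase in KO cells was 1.46 (SE 0.06, adjusted p 4.06e-14). Its KO increase was larger by 0.44 (SE 0.09, interaction adjusted p 0.00157), and in senescent cells KO exceeded WT by 0.31 (SE 0.06, adjusted p 0.000801).

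The ratio of Mt2 to Mt1 counts within a library moved with senescence. It was 0.883, 0.722 and 0.794 in WTC and 1.01, 1.03 and 1.04 in WTS. In KO cells it was 0.696, 0.723 and 0.671 in KOC and 1.21, 1.21 and 1.14 in KOS, so senescent libraries lay above control libraries in both genotypes and KOS above WTS. Of the 588 exon bases of Mt2, 432 (73.5%) are shared with Gm45774 on the opposite strand. Whether the counting used strand is not stated, so reads from these bases may have been dropped or counted for either gene, and the Mt2 level is uncertain for that reason. Gm45774 was counted at 1.85 ± 0.33 CPM in WTC, 3.36 ± 0.20 CPM in WTS, 1.55 ± 0.48 CPM in KOC and 4.03 ± 0.73 CPM in KOS (SD, n = 3), in the same order of groups as Mt2, and its part in the Mt2 result was not tested.

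**Figure D3:**
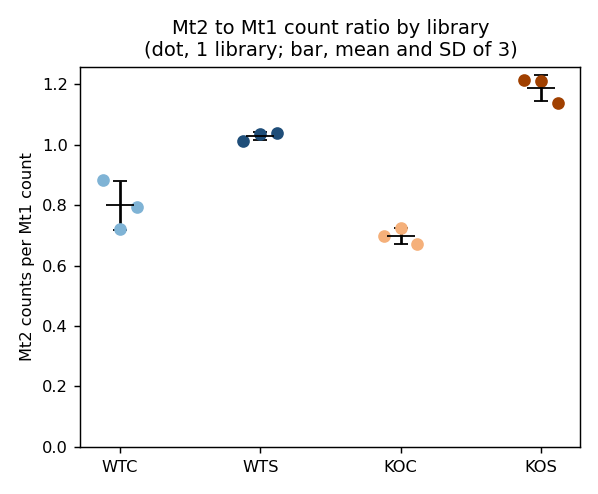
Counts of Mt2 per count of Mt1 in each library (y axis, from 0) by group; dots are libraries and bars the mean and SD of 3. Control libraries lie between 0.671 and 0.883, WTS libraries near 1.03 and KOS libraries between 1.14 and 1.21.

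Between genotypes, 3 of the 10 genes passed in control cells, with Tsc22d3 higher and Dusp1 and Hsd11b1 lower in KOC than in WTC, where 13% of all genes passed (8.07% higher and 4.96% lower). In senescent cells 4 passed, with Tsc22d3 and Mt2 higher and Zbtb16 and Hsd11b1 lower in KOS than in WTS, against 23.7% of all genes (11.9% higher and 11.8% lower). Tsc22d3 and Hsd11b1 passed in both states. Libraries did not overlap for 4 of 10 genes in control cells, where this held for 25.9% of all genes, and for 6 of 10 in senescent cells, against 42%. Tsc22d3 and Hsd11b1 exceeded 1 on the log2 scale in control cells (2.54% of all genes did) and Zbtb16 in senescent cells (3.48%).

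**Figure D4:**
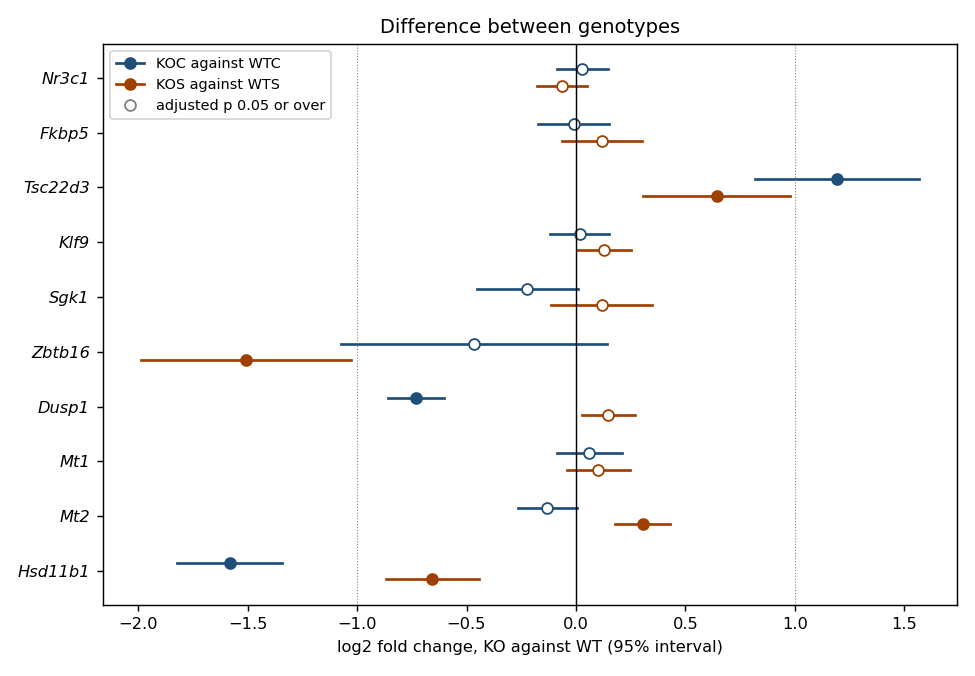
Log2 fold change of KO against WT for each of the 10 genes (x axis), in control cells (blue) and senescent cells (orange), with 95% intervals; open circles did not pass an adjusted p of 0.05 and dotted lines mark 1. Tsc22d3 lies to the right in both states (1.19 and 0.64) and Hsd11b1 to the left (−1.58 and −0.66), while Dusp1 lies to the left in control cells only (−0.73 and 0.15).

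Whether senescence acted differently in the 2 genotypes was tested as an interaction, the KO senescence change less the WT one. It cancels an offset between the 2 tables only where that offset is the same in control and senescent libraries. Handling of senescent cells that differed between the genotypes cannot be told apart from an interaction. Dusp1, Mt2 and Hsd11b1 passed, all with the larger increase in KO cells, which made 3 of 10 genes against 20.9% of all genes tested (9.24% positive and 11.7% negative). None of the 3 differences exceeded 1 on the log2 scale in edgeR's test or in DESeq2. By edgeR's test 3.66% of all genes passed and exceeded 1. With no filter on low counts Zbtb16, at −1.05, did exceed 1 with an adjusted p of 0.0422. Tsc22d3 and Zbtb16 had the smaller increase in KO cells, by 0.55 and 1.04, without passing.

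Per kilobase of annotated exon, Mt2 had the highest level in every group and Zbtb16 the lowest. This scale depends on the annotation, which gave Mt1 1246 exon bases, the whole gene, and Mt2 588. By CPM alone Mt1 was above Mt2 in WTC (means 64.2 and 51.1) and in KOC (66.9 and 46.6). The order of these genes in control cells thus rests on the exon lengths used. In WTC the order was Mt2 (86.8 CPM per kb), Sgk1 (84.1), Mt1 (51.5), Dusp1 (21.6), Nr3c1 (20.2), Klf9 (7.04), Fkbp5 (7.03), Hsd11b1 (3.78), Tsc22d3 (3.36) and Zbtb16 (0.240). Mt2 and Sgk1 overlapped there, as did Dusp1 and Nr3c1, Klf9 and Fkbp5, and Hsd11b1 and Tsc22d3. In WTS no neighbours overlapped, Tsc22d3 (8.45 CPM per kb) had passed Hsd11b1 (5.11), and Fkbp5 (2.08) had dropped to the place above Zbtb16 (1.21). In KOC, Mt2 and Sgk1 overlapped again, Dusp1 (13.1 CPM per kb) was below Nr3c1 (20.6), and Tsc22d3 (7.67), Klf9 (7.13) and Fkbp5 (6.98) overlapped in turn. In KOS the order of genes was that of WTS, with overlaps of Mt1 (86.8 CPM per kb) with Sgk1 (76.1) and of Klf9 (14.4) with Tsc22d3 (13.2).

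Genes with a profile like that of the receptor gene, or of the 3 genes that differed by interaction, were sought by the root mean square difference of centred log2 CPM over the 12 libraries among 10931 genes averaging 5 CPM or more. Nearest to Nr3c1 was Igf1r, the receptor of insulin-like growth factor, at 0.0388, followed by Poglut1 and Mapk8ip3. Nearest to Dusp1 was Hmox1, the stress-induced haem oxygenase, at 0.0928, with mean levels of 149.9 CPM in WTC, 300.5 CPM in WTS, 92.4 CPM in KOC and 335 CPM in KOS, followed by Thbd and Phlda1. Mt2 was nearest to Otud1 (0.101), Fjx1 and Zfand2a. For Hsd11b1 the nearest gene was Arntl, at 0.252, followed by Lcn2 (0.260) and Apoe (0.278). These distances were larger than those of the genes nearest to Nr3c1, Dusp1 and Mt2, beside a median of 0.80 from Hsd11b1 over all candidates. Arntl is the gene targeted in KO cells, so its lower level there comes with the design. All distances given here order genes and carry no test.

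Of 18 chaperones and coregulators of the receptor, 2 passed as higher and 11 as lower in WTS than in WTC, with a median of −0.27, where 29.2% of all genes passed as higher and 27% as lower. In KO cells 2 passed as higher, 7 as lower and 9 did not pass, with a median of −0.15, so that 50% passed against 57.1% of all genes. Fkbp4, the co-chaperone that competes with FKBP51 in the HSP90 complex and favours hormone binding, fell from 161 ± 8.77 to 86.8 ± 1.94 CPM in WT cells (−0.89, SE 0.06) and from 152 ± 13.2 to 87.9 ± 2.41 CPM in KO cells (−0.79, SE 0.06). Ptges3, the p23 co-chaperone, fell by 0.67 and 0.49 on the log2 scale, and Smarca4, the BRG1 remodeller that the receptor recruits, fell by 0.54 and 0.47. Hsp90aa1, the inducible HSP90, went in opposite directions, −0.31 in WT (SE 0.07, adjusted p 0.0014) and 0.28 in KO cells (SE 0.07, adjusted p 0.00296), with an interaction of 0.58 (SE 0.10, adjusted p 0.000627). Hspa8 and Bag1, of the HSP70 system, also had positive interactions, of 0.50 and 0.43, among 6 of the 18 genes that passed that test (33.3%), all 6 positive, against 20.9% of all genes, 9.24% with a positive sign. The coactivators Ncoa1 and Ncoa2 rose by 0.32 and 0.23 in WT cells, with 0.06 and −0.02 in KO cells.

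The genes listed for glucocorticoid handling, among them the gene of another steroid receptor, split. Abcb1a, a drug efflux pump that exports dexamethasone, rose by 0.46 in WT cells (SE 0.08) and by 1.25 in KO cells (SE 0.08), an interaction of 0.78 (SE 0.12, adjusted p 0.000124). Its neighbour Abcb1b fell by 0.34 in WT cells and rose by 0.63 in KO cells (interaction 0.97, SE 0.11, adjusted p 1.44e-05), and both counts are uncertain because reads that map to both of these close paralogues were dropped. H6pd, which supplies the cofactor for 11β-hydroxysteroid dehydrogenase type 1, fell by 0.18 in WT cells (adjusted p 0.0389), and the KO decrease was 0.61 (SE 0.07), the opposite direction to Hsd11b1. The other genes of this list had low levels and, in WT cells, its largest fold changes. Nr3c2, the mineralocorticoid receptor gene, rose from 0.543 ± 0.40 to 2.41 ± 0.61 CPM in WT cells (2.11, adjusted p 0.00053) and from 0.359 ± 0.18 to 1.80 ± 0.68 CPM in KO cells (2.30, adjusted p 0.000454). Hsd11b2, which inactivates glucocorticoid, rose from 0.111 ± 0.044 to 0.444 ± 0.19 CPM in WT cells (1.93, adjusted p 0.0143), near the floor of detection, with 1.17 in KO cells (adjusted p 0.0951). In all, 3 of 5 passed as higher and 2 as lower in WT cells, and 3 as higher and 1 as lower in KO cells, where 56.2% and 57.1% of all genes passed.

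Of 24 other genes known to be induced by glucocorticoids, 13 passed as higher and 4 as lower with senescence in WT cells (median 0.38), and 13 as higher and 6 as lower in KO cells (median 0.27). Over all genes the shares were 29.2% higher and 27% lower in WT cells and 28.5% and 28.6% in KO cells. Pdk4, the kinase that closes pyruvate dehydrogenase, rose from 8.29 ± 0.85 to 30.4 ± 4.14 CPM in WT cells (1.87, SE 0.12) and from 11.5 ± 0.90 to 31.0 ± 4.13 CPM in KO cells (1.42, SE 0.11). Lpin1, a phosphatidate phosphatase, rose by 1.59 and 1.03, and the efferocytosis receptor Mertk by 1.09 and 1.49. Angptl4, an inhibitor of lipoprotein lipase, fell in both, by 1.31 and 0.52, as did Ddit4, an inhibitor of mTORC1, by 0.30 and 0.84. The direction was thus not common to the list, and of the 24 genes 5 passed the interaction test with a positive and 8 with a negative sign, against 9.24% and 11.7% of all genes. Pik3r1, a regulatory subunit of PI3-kinase, rose by 1.09 in WT cells (SE 0.12), with 0.00 in KO cells (SE 0.12), an interaction of −1.08 (SE 0.17, adjusted p 0.00128). Klf15 rose by 1.87 in WT cells and 1.03 in KO cells (interaction adjusted p 0.0174), Cdkn1c by 0.63 in WT cells while it fell by 0.28 in KO cells, and Cebpb had an interaction of −0.75 (adjusted p 0.0112). Rgs2, Errfi1 and Angptl4 had interactions of 0.87, 0.66 and 0.79. Lcn2 rose by 0.80 and 1.07 and was lower in KO than in WT cells by 1.61 among controls and 1.34 among senescent cells on the log2 scale.

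Genes known to be repressed by glucocorticoids were mostly higher in senescent cells too. Of 18, 15 passed the filter on low counts, and Il1b, Tnf and Nos2 did not. In WT cells 11 of the 15 passed as higher and 2 as lower (median 1.29), and in KO cells 13 as higher and 1 as lower (median 1.82), beside 29.2% higher and 27% lower of all genes in WT cells and 28.5% and 28.6% in KO cells. Icam1, an adhesion molecule for leukocytes, rose from 17.0 ± 0.75 to 102 ± 4.12 CPM in WT cells (2.57, SE 0.07) and from 10.8 ± 0.76 to 67.2 ± 3.95 CPM in KO cells (2.64, SE 0.07). The stromelysin Mmp3 rose by 1.66 and 2.11, and the chemokine Ccl7 by 1.69 and 1.46. Il6 fell, from 7.67 ± 0.52 to 4.52 ± 0.46 CPM in WT cells (−0.76, SE 0.15) and from 6.43 ± 0.27 to 3.18 ± 0.60 CPM in KO cells (−1.01, SE 0.16). Lif, a cytokine of the IL-6 family, rose by 1.29 and 2.88, with an interaction of 1.60 (SE 0.23, adjusted p 0.000401), and Il11 had one of 1.20 (SE 0.28, adjusted p 0.0125). Ptgs2, the inducible cyclooxygenase, fell by 0.78 in WT cells (adjusted p 0.00531) and rose by 0.48 in KO cells (adjusted p 0.0494), with an interaction of 1.26 (SE 0.26, adjusted p 0.00905). Vcam1 had the opposite interaction, −0.62 (SE 0.12, adjusted p 0.00172). Many of these genes also belong to the known secretome of senescent cells.

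**Figure D5:**
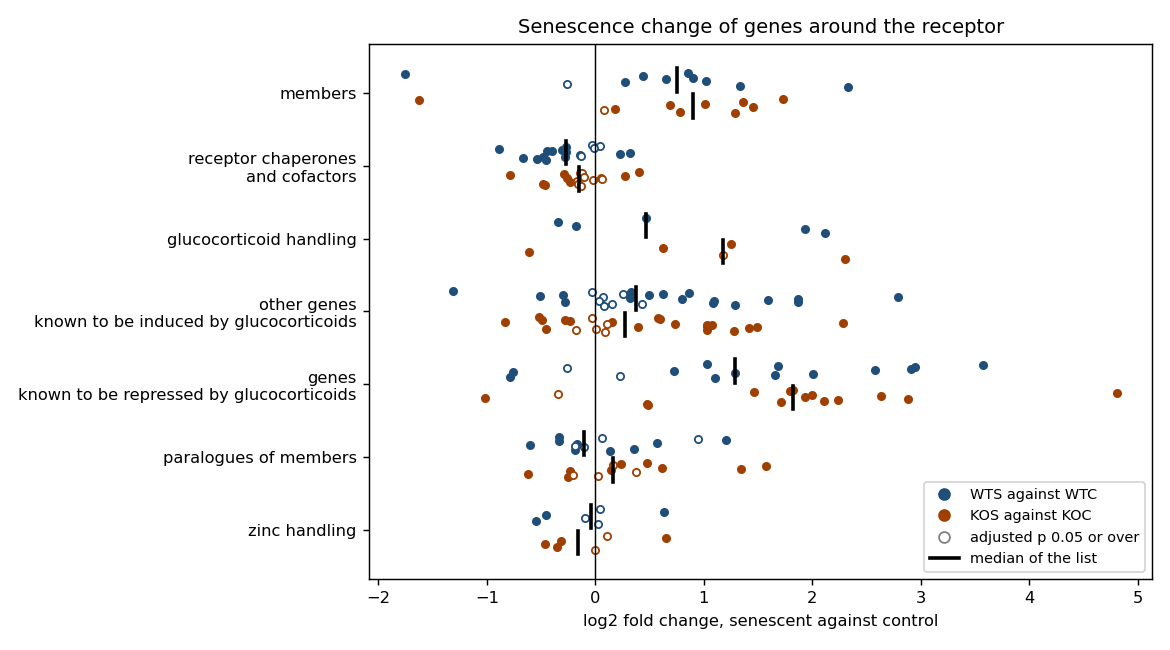
Log2 fold change with senescence of each tested gene (x axis) in 7 lists, in WT cells (blue) and KO cells (orange); filled circles passed an adjusted p of 0.05 and black bars are list medians. The 10 genes have medians of 0.75 and 0.90, the chaperones and cofactors −0.27 and −0.15, and the genes known to be repressed by glucocorticoids 1.29 and 1.82.

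Relatives of the 10 genes did not share 1 direction. Of 15 paralogues 13 were tested, and Sgk2 and Mt4 were too low. In WT cells 4 passed as higher and 5 as lower (median −0.11), and in KO cells 6 as higher and 3 as lower (median 0.16), so that 69.2% passed in each genotype, against 56.2% and 57.1% of all genes. The MAP kinase phosphatases Dusp4 and Dusp6 rose in both genotypes, by 1.20 and 0.57 in WT cells and by 1.58 and 1.34 in KO cells. Dusp5 and Dusp10 each fell by 0.34 in WT cells and rose in KO cells, by 0.61 and 0.48. The interactions of Dusp5, Dusp6 and Dusp10 were 0.95, 0.77 and 0.81 and passed, with the sign of that of Dusp1. Those of the other MAP kinase phosphatases listed did not pass, at 0.37 for Dusp4, 0.18 for Dusp16 and −0.79 for Dusp2. Among relatives of Tsc22d3 the interactions of Tsc22d1 and Tsc22d4 were −0.56 and −0.39, and Sgk3 had −0.51. Klf16 fell by 0.60 and 0.23. Of 6 zinc handling genes, 1 passed as higher and 2 as lower in WT cells and 1 as higher and 3 as lower in KO cells, and the interaction was passed by 0 with edgeR, where 20.9% of all genes passed. Slc30a1, the zinc exporter that MTF1 induces together with the metallothioneins, rose by 0.64 in WT cells (SE 0.07) and 0.65 in KO cells (SE 0.08), increases that differed by 0.01 (SE 0.11). The zinc transporters Slc39a14 and Slc30a5 fell by 0.55 and 0.45 in WT cells and by 0.35 and 0.31 in KO cells, and Slc39a10 fell by 0.47 in KO cells (adjusted p 0.00476).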

How the data were processed

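Gene counts of 12 RNA-seq libraries, 3 for each of WTC, WTS, KOC and KOS, were used, grouped from their deposited titles. The deposited values were raw counts, which the authors made from poly(A) libraries (NEBNext Ultra II, paired reads on an Illumina HiSeq) by trimming with Trimmomatic 0.36, mapping to GRCm38 with STAR 2.5.2b (versions from the submitters' processing notes) and counting uniquely mapped exon reads with featureCounts. Reads with more than 1 mapping place were dropped, which lowers counts of genes with copies. The use of strand and the annotation release are not given in the sources used here, so counts of genes with overlapping exons are uncertain.

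The 2 tables, 1 per genotype, were joined on gene identifier, and 48970 of 49315 identifiers were matched to symbols and coordinates in a GENCODE annotation of GRCm38. edgeR 4.0.16 in R 4.3.3 gave the tests. Genes were kept by filterByExpr, a robust quasi-likelihood fit with TMM factors took in all 12 libraries, each group having its own mean, and p-values were adjusted by the Benjamini-Hochberg method over the 17416 genes tested. Every adjusted p is from this test unless another is named. A gene passed where its adjusted p was under 0.05. The SE was the absolute log2 fold change divided by the square root of F, and intervals are 95% t intervals with the degrees of freedom of the fit. Alternatives were DESeq2 1.42.0, DESeq2 size factors, other filters on low counts, fits of the compared groups alone, a replicate block and leaving out each library. The script was tested on simulated data with known changes. Intervals and floors cover counting error and the spread between libraries only, because reads carried no molecular identifiers.

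The 10 genes and all lists were chosen with earlier results of these data known, so p-values were adjusted over all genes only, and lists are described by counts and medians. From each list, up to 3 genes averaging 5 CPM or more, by largest passing change, were named in each direction for WT senescence, KO senescence and the interaction, plus Arntl and, for likeness, the 3 nearest genes. Hsd11b2, Nr3c2, Dusp2, Dusp16, the fibroblast markers and the untested list genes were named outside this rule, after their values were seen, as were list genes' KO against WT values.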

Additional observations from a re-analysis of the deposited data

Results flagged for a closer look

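For 3 genes the senescence change differed between the genotypes by the interaction test. The Dusp1 increase was larger in KO cells by 0.88 on the log2 scale (adjusted p 1.07e-06), from the lowest level of the 4 groups in KOC to the highest in KOS. The Hsd11b1 increase was larger in KO cells by 0.93 (adjusted p 0.000287), from a lower level in both states. The Mt2 increase was larger in KO cells by 0.44 (adjusted p 0.00157), with the overlap of its exons with Gm45774 as a limit on its count. All 3 differences passed in each of the 5 other ways of processing and without each of the 12 libraries in turn, with ranges over left-out libraries of 0.81 to 0.93 for Dusp1, 0.84 to 1.02 for Hsd11b1 and 0.39 to 0.51 for Mt2.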

How the results depend on the processing

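Requiring a log2 fold change over 1 as well as an adjusted p under 0.05 left 4 of the 10 genes in WT senescence, 0 in the interaction and 1 in KOS against WTS. In WT senescence it left 3 without WTC replicate 2, without WTS replicate 3 and with the compared groups alone. The interaction count of 3 became 5 with DESeq2 and 6 with no filter on low counts, and ran from 3 to 5 over left-out libraries, the highest without KOC replicate 1. Over all genes the interaction was passed by 3639 in the main fit, 3774 with DESeq2 and 3696 with no filter. Without KOC replicate 1 it was passed by 4253. The WT and KO senescence counts of 9 ran from 9 to 10 and from 8 to 10 over left-out libraries, and the genotype counts of 3 and 4 from 3 to 4 and from 4 to 5. Changed calls of single genes were most frequent for Sgk1, Dusp1 in KOS against WTS, and the Zbtb16 interaction.

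Directions turned only where the value was near 0 and had not passed. Over left-out libraries the KO senescence value of Sgk1 ran from −0.0167 (without KOC replicate 2) to 0.23, the Mt1 interaction from −0.0308 (without KOS replicate 3; −0.0110 without WTC replicate 2) to 0.13, and Nr3c1 in KOS against WTS from −0.11 to 0.000102 (without KOS replicate 3). In KOC against WTC, Fkbp5 ran from −0.10 to 0.0751, positive without WTC replicates 1 and 3 and KOC replicates 2 and 3 (0.00728, 0.0751, 0.00744 and 0.00598), and Klf9 from −0.0140 to 0.048, negative without WTC replicate 3 and KOC replicate 2 (−0.00294 and −0.0140). Mt1 in KOS against WTS passed without KOS replicate 1 (0.19, adjusted p 0.0325). The causes were not tested.

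Pairing of samples by replicate number was not evident, with correlations of same-numbered deviations of 0.0147 to 0.108 in WT and −0.125 to 0.0452 in KO cells. Deviations from means of 3 libraries cannot settle whether samples were paired. With a replicate block 10 of the 10 genes passed in WT senescence and 9 in KO senescence, beside 9493 and 9621 of the 17416 genes tested. In the interaction 4 passed, with Tsc22d3 at −0.55 (adjusted p 0.00174), beside 3244 of all genes. The block fit passed 3 in KOC against WTC, beside 2418 of all genes, and 5 in KOS against WTS, beside 4205. Depth limited Zbtb16, with 18 to 35 counts in control libraries.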

Other observations

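The methods of the study describe female donor mice. The Y-linked gene Ddx3y was counted at 114 to 139.8 CPM in the 12 libraries, so the counts go against purely female cells in all 4 groups. Xist, the transcript that silences 1 X chromosome in female cells, was at 2.62 to 22.1 CPM. It varied within groups, at 21.4, 22.1 and 5.82 CPM in WTC and 9.15, 2.62 and 3.34 CPM in KOS. Whether cells of both sexes were present was not tested. Tsc22d3 is the only X-linked gene among the 10.

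Partners in the same circuit moved apart in one case and together in others. Hsd11b1 rose with senescence in both genotypes while H6pd, the source of its cofactor, fell in both. Fkbp5 and Fkbp4, whose products compete for the same place in the receptor complex, fell together, Fkbp5 by 1.76 and 1.63 and Fkbp4 by 0.89 and 0.79 on the log2 scale in WT and KO cells. Slc30a1 and Mt1, both known targets of MTF1, rose by nearly the same amount in WT cells (0.64 and 0.65) and in KO cells (0.65 and 0.69), whereas Mt2, another such target, rose by 1.02 and 1.46.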
